A study of Mus musculus with 126 samples.

Results

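Cytosolic ribosomal protein genes encode the proteins that, with the ribosomal RNAs, build the ribosomes of the cytosol. They were selected here by symbol, as Rpl or Rps followed by a number with at most a short a, x or l suffix, together with Rplp0, Rplp1, Rplp2 and Rpsa, and without the Rps6k kinases. The selection used no measured value. It found 83 of the 23420 genes in the deposited RNA-seq table, of which 51 belong to the large (60S) and 32 to the small (40S) subunit. Of the 83, 6 are paralogues that can stand in for a more broadly expressed relative: Rpl3l, Rpl7l1, Rpl10l, Rpl22l1, Rpl39l and Rps27l. Enough counts for testing were found for 82 of them, all except Rpl26.

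The study asked how DNA methylation and histone acetylation bear on the binding of transcription factors, and its 8 RNA-seq libraries, out of 126 samples, are used here. All cells were mouse embryonic stem cells of the J1 strain grown on gelatin in medium with leukaemia inhibitory factor and serum. Wild type cells received 0.0033% DMSO for 36 h or 5 ng/µl Trichostatin A (TSA, an inhibitor of histone deacetylases) for 36 h, and cells of genotype Dnmt1-/-, Dnmt3a-/-, Dnmt3b-/- (TKO), which lack the DNA methyltransferases, received the same 2 treatments. Each of the 4 groups has 2 libraries, which the series calls biological replicates. The sources used here do not say whether they came from separate cultures or whether the TKO cells are 1 clone, so p-values measure the spread between these libraries, and the genotype cannot be told apart from the history of the TKO line.

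A ribosome holds 1 copy of most of its proteins, apart from the stalk proteins Rplp1 and Rplp2, so their genes are expressed together. The messenger RNAs of ribosomal proteins, and of several translation factors, begin with a C followed by a run of pyrimidines. This 5′ terminal oligopyrimidine (TOP) tract places their translation and stability under the mTOR kinase and the RNA-binding protein Larp1. Some subunits have further roles: Rpl5 and Rpl11 form a particle with 5S ribosomal RNA that restrains Mdm2, and Rps6 is phosphorylated by the S6 kinases.

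The sequence around listed start sites was searched for such a tract. The RefSeq promoter table (GRCm38.p6, the build mm10 of the deposited coordinates) matched 63 of the 83 genes by symbol, 62 of them tested, and its start lay within 5 bases of the deposited gene start for 53. A tract was counted where a C followed by at least 4 pyrimidines began within 10 bases of the table start, and 36 of the 62 tested genes (58.1%) held one, against 31.9% of the 11396 tested genes in that table. In the windows of 14 bases before and 16 bases from the start that follow, the tract is in capitals. In Rpl39l and Rpl10l it ends before the table start. The rule therefore does not show that a messenger RNA begins with the tract. Rpl13a, Rpl7a and Rpl27a are shown for their long tracts, Rps3 because it is abundant and had no tract by this rule, and Rpl39l and Rpl10l because they are the members that were higher with TSA.
Rpl13a (chr7:45128730-45128759, minus strand): aaaccctgcgacaagaCCTCCTCCTTTCCC
Rpl7a (chr2:26910793-26910822, plus strand): ttccCTCTTCTTTCTTTCTCCagcagccga
Rpl27a (chr7:109519181-109519210, plus strand): acttcgtgagCTCCTCCCTTTTCCCTTTCT
Rps3 (chr7:99483694-99483723, minus strand): ttgcaagggtcgccgcgctgcgcggcgtca
Rpl39l (chr16:10170214-10170243, plus strand): tcccaggCCTTTCCggatttccggtggtcg
Rpl10l (chr12:66284386-66284415, minus strand): ttggCCTCCattttgcggctggcggtgggc

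Upstream of the start, the 250 bases of the 62 promoters held a median of 18 CpG dinucleotides, the sites of DNA methylation, against 15 over all tested genes in the table. The letters TTCCGG or CCGGAA, the core bound by Gabpa, which the study assayed by ChIP-seq, stood on either strand in 25 of the 62 (40.3%), against 20.7% of all. For Sp1, GGGCGG stood in 50% against 58.7%. For Max, CACGTG stood in 6.45% against 8.41%. For Yy1, AAGATGGCG stood in 1 promoter, that of Rps27. For Nrf1, GCGCATGCG stood in 0 of 62 against 2.9% of all. A match to letters describes the sequence only. The 3 paralogues that differed between genotypes in at least 1 treatment had fewer CpG than the median member, with 12 in Rpl39l, 8 in Rpl10l and 2 in Rpl3l. Their relatives Rpl39 and Rpl10 had 12 and 13. The other members called between genotypes had 29 (Rps2), 23 (Rpl35), 19 (Rps18), 19 (Rps6) and 17 (Rpl13). A link between CpG number and genotype was not tested. The CpG of the 3 paralogues are in capitals here in the 250 bases before each start.
Rpl39l (chr16:10169978-10170227, plus strand): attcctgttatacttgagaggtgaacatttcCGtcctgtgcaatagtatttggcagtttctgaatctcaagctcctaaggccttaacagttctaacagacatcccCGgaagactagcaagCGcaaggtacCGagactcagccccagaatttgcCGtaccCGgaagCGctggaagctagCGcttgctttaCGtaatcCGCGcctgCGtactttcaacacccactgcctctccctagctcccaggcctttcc
Rpl10l (chr12:66284402-66284651, minus strand): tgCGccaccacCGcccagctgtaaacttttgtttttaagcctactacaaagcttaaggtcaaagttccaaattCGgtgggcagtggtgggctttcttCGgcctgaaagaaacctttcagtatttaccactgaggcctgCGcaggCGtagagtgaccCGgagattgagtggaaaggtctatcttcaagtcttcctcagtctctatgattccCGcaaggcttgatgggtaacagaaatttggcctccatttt
Rpl3l (chr17:24727576-24727825, plus strand): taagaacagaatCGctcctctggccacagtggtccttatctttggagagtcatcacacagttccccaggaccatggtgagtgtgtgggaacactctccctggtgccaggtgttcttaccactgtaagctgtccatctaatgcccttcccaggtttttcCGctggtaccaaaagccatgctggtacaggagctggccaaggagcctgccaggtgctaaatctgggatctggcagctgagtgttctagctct

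The libraries held 13280631 to 15542527 counts, so a gene with 3 counts stood at 0.193 to 0.226 CPM, the count of a gene scaled to the total of its library. Levels below are CPM after scaling the library totals by trimmed mean of M values (TMM) factors, called normalised CPM. Dnmt1, Dnmt3a and Dnmt3b were all lower in TKO than in wild type, with Dnmt3b at 596 and 588 normalised CPM in wild type DMSO and 46.2 and 43.7 in TKO DMSO. None of the 10 embryonic stem cell markers was at 0, but their summed level moved with TSA, from 3322 to 3774 in wild type DMSO to 1788 to 1991 with TSA, and from 4278 to 4650 in TKO DMSO to 1738 to 2097 with TSA. The 8 fibroblast markers summed to 38.5 to 45.1 and 80.4 to 96.2 in wild type and to 11 and 36.4 to 54.5 in TKO, for DMSO and TSA. The 4 neural markers summed to 313 to 399 and 130 to 167 in wild type and to 277 to 303 and 127 to 140 in TKO, and the 5 endoderm markers to 5.35 to 6.48 and 8.06 to 11.2 in wild type and to 16 to 18.3 and 27.4 to 31.3 in TKO. The 3 mesoderm markers summed to 9.81 to 16.9 and 10.1 to 14 in wild type, for DMSO and TSA. In TKO they summed to 5.39 to 5.75 and 8.19 to 9.92. The ribosomal RNA precursor Rn45s, left after depletion, took 1.85% to 2.06% of counts in DMSO and 1.42% to 1.5% with TSA. The part that these shifts have in the results below was not tested, and in bulk RNA fewer cells of a type and less RNA per cell cannot be told apart.

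The members differed widely in level although their products are needed in near-equal numbers. Per kilobase of exon, the mean over the 4 groups ran from 0.7 normalised CPM for Rpl3l to 1537 for Rpl8 among the 82 tested members, with a median of 68.9. Rpl8 (at the peptidyl transferase centre), Rpl4, Rps3 (at the mRNA entry channel) and the stalk protein Rplp1 were among the highest, at 1537, 851, 800 and 639 per kilobase. Without the length correction, Rps3, Rpl8 and Rpl4 together held 31.8% of all member CPM, and the 10 most abundant members held 58.1%. Rpl26 was at the bottom with 1 to 7 counts in each library; 95.8% of its exon bases are shared with the gene model Gm15772 on the same strand. Shared exons also cover 76% of Rpl30, 67.2% of Rpl34 and 60% of Rps27, and 11 members in all share exon bases with another gene, so their levels are uncertain.

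Ribosomal protein genes have many processed pseudogenes, near-identical copies that can take or block reads. The RefSeq gene table lists 319 loci named as a pseudogene of a member, for 63 of the 83 genes. Among tested members the median level per kilobase was 214 for the 20 without such a locus, 78.5 for the 28 with 1 or 2, and 44.7 for the 34 with 3 or more. How reads with several matches were counted is not given in the sources used here, so the order of levels between members may not be that of their messenger RNAs.

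**Figure D1:**
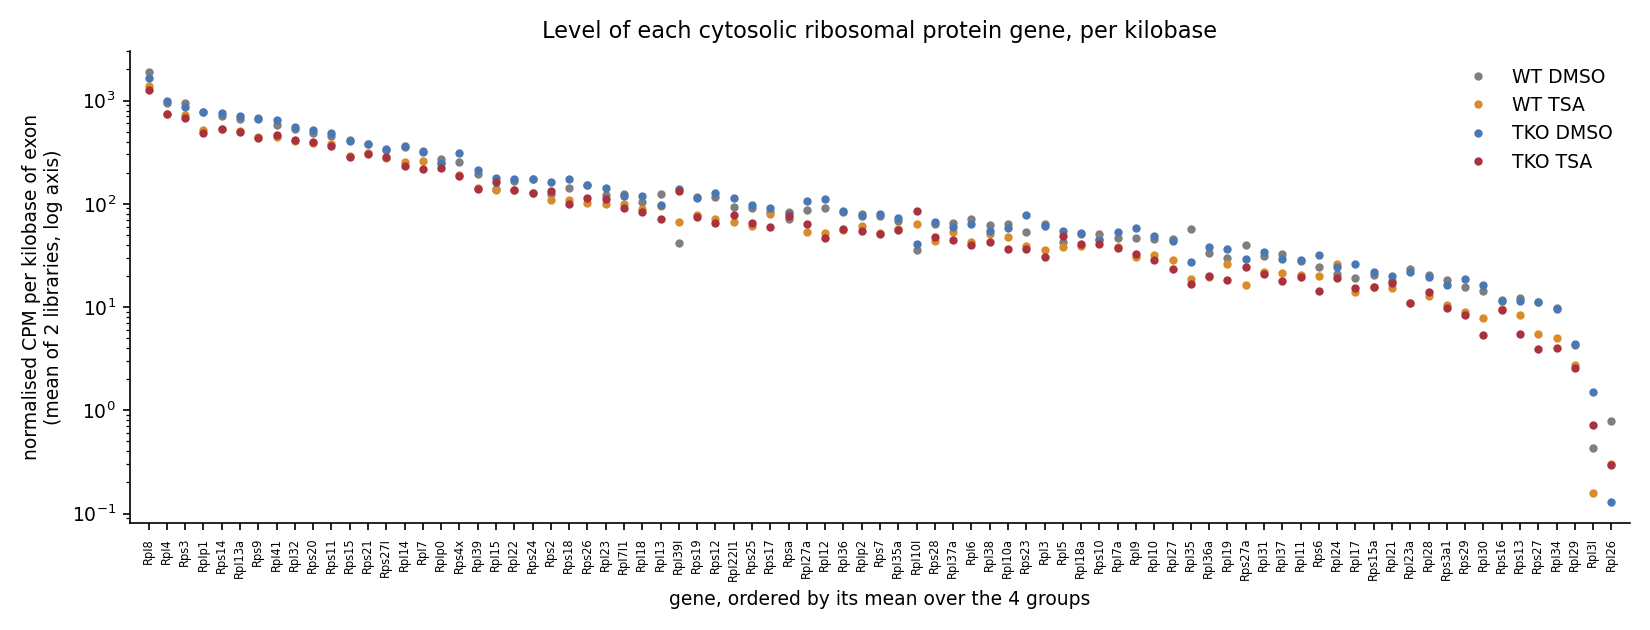
Each point is the mean of 2 libraries in normalised CPM per kilobase of exon (log axis) for 1 of 81 genes, ordered by the mean over the 4 groups, with a colour for each group. Levels fall from 1537 per kilobase for Rpl8 to below 1 for Rpl3l and Rpl26, and for most genes the 2 TSA points lie under the 2 DMSO points.

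TSA lowered most of the ribosomal protein genes in both genotypes. In wild type cells 55 of the 82 were called lower and 2 higher (edgeR quasi-likelihood test, adjusted p below 0.05), where 25.9% of all tested genes were called lower and 27% higher. In TKO cells 66 were called lower and 1 higher, where 27.9% of all tested genes were called lower and 30.8% higher. The median log2 fold change of the members was -0.44 in wild type and -0.52 in TKO, beside medians of 0.01 and 0.04 over all tested genes. Both libraries with TSA lay below both libraries with DMSO for 68 members in wild type, where 37.4% of all tested genes did so, and for 75 in TKO, where 39.5% did. In all 8 fits that leave out 1 library, 27 of the 55 and 40 of the 66 remained called lower, and none changed sign.

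The most abundant members fell with the rest. Rpl8 (chromosome 15, 76904071 to 76906318) was at 1591 and 1647 normalised CPM in wild type DMSO and 1198 and 1170 with TSA, and at 1373 and 1447 in TKO DMSO and 1138 and 1032 with TSA. The TSA libraries were below the DMSO libraries in each genotype, with a log2 fold change of -0.45 (SE 0.0868, adjusted p = 0.00141) in wild type and -0.38 (SE 0.0868, adjusted p = 0.00325) in TKO. Rps3 fell by 22.6% in wild type and 22.5% in TKO, and Rpl4 by 23.1% and 25.4%.

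The largest decreases lay among members with few counts. In TKO the 5 lowest log2 fold changes were those of Rpl30, Rps27, Rpl34, Rpl12 and Rps29, between -1.6 and -1.16, all called. Rpl12, a protein at the base of the stalk, is the only one of these above 20 normalised CPM. It was at 67.5 and 72.9 in TKO DMSO and 28 and 31.6 with TSA, a log2 fold change of -1.24 (SE 0.118, adjusted p = 1.26e-05). In wild type it was at 61.7 and 54.9 in DMSO and 35.3 and 31.3 with TSA. In wild type the lowest included Rpl35, Rpl3l, Rps27a and Rpl23a, between -1.62 and -1.08, of which Rpl3l was not called (adjusted p = 0.0537). Rpl35 and Rps27a had uneven control libraries: Rpl35 was at 33.2 and 18.9 normalised CPM in wild type DMSO, and Rps27a at 22.8 and 42. Rpl23a was even in each group, at 14.6 and 11.3 against 6.11 and 6.18 in wild type and 12.9 and 11.6 against 5.89 and 6.22 in TKO.

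By level, the 18 members under 20 CPM had a median log2 fold change of -0.72 in wild type and -0.77 in TKO, the 38 from 20 to 100 CPM -0.46 and -0.59, and the 26 of 100 CPM or more -0.35 and -0.40. Both subunits were represented. Of 32 small subunit genes 22 fell in wild type and 27 in TKO, with medians of -0.43 and -0.50, and of 50 large subunit genes 33 and 39 fell, with medians of -0.44 and -0.55. Among stalk genes, Rplp1 fell by 33.1% and 36.4% and Rplp2 by 24.2% and 28.3%. Rplp0, the stalk's anchor and a common reference gene for PCR, was at 375 and 365 against 330 and 347 in wild type and 334 and 335 against 288 and 320 in TKO, with adjusted p-values of 0.231 and 0.185. Of the 5S particle, Rpl11 fell by 28.3% and 32%, while Rpl5 had log2 fold changes of -0.16 in each genotype and libraries that overlapped.

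Across the 82 members, the effects in the 2 genotypes, which share no library, correlated with Pearson's r = 0.671 and Spearman's rho = 0.714, given as a description over genes. The same r over all 15822 tested genes was 0.837. Called lower in both genotypes were 53 members, 2 in wild type alone and 13 in TKO alone, where 21.2% of all tested genes were called lower in both. The log2 fold change was more negative in TKO for 64 of the 82, and for 7641 of the 15822 tested genes. That number was 45 of 82 with the length offset described below, 49 when scaled to the summed member counts, and 51 without wild type TSA library 1. Between-genotype differences in the TSA effect are tested below.

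**Figure D2:**
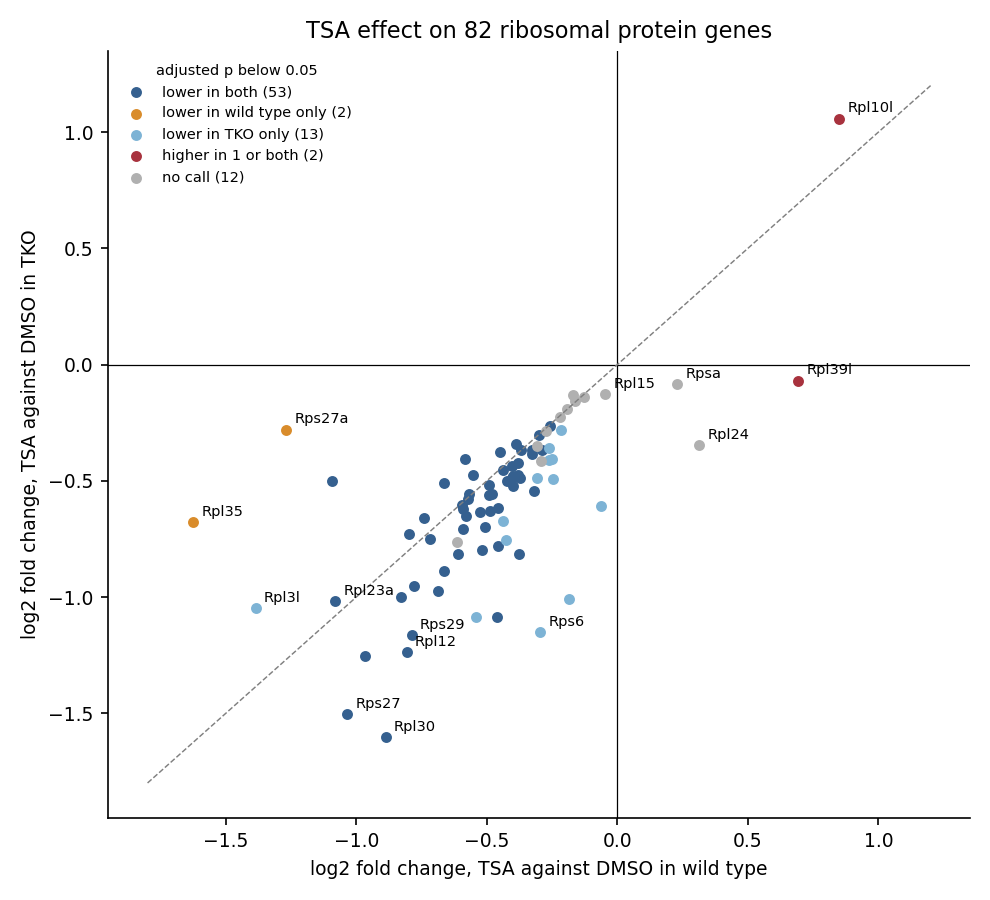
Each point is 1 of the 82 tested genes, placed by its log2 fold change with TSA in wild type (x axis) and in TKO (y axis), coloured by its calls, with the dashed line marking equal effects. Most points have negative values on both axes, with 53 genes called lower in both, and Rpl10l and Rpl39l stand farthest to the right.

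How far the decrease rests on the scaling of the libraries was examined next. A relative measurement of RNA has no fixed zero: the TMM factors were 0.929 to 0.955 in DMSO libraries and 1.04 to 1.08 in TSA libraries, so the choice of factors alone moves every TSA effect. Without any factor, the members' share of all counts was 1.34% and 1.33% in the wild type libraries with DMSO and 1.21% and 1.18% in those with TSA, and in the TKO libraries 1.37% and 1.38% with DMSO and 1.16% and 1.12% with TSA. The TSA libraries were lower than the DMSO libraries in each genotype.

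The number of calls followed the scaling. With scaling by total counts alone, 27 members were called lower and 3 higher in wild type and 52 lower and 1 higher in TKO, and the median member was at -0.23 and -0.37 while the median of all tested genes stood at 0.22 and 0.19. Upper quartile factors gave 36 and 60 lower, relative log expression factors 52 and 66, and TMM factors computed without the members 55 and 66. Under these 4 and TMM the median of the members minus that of all tested genes was -0.45 in wild type and -0.56 in TKO. A scaling factor moves every gene of a library alike, so this difference is fixed by construction and is no check on the scaling: it gives the members' position relative to other genes, and an absolute change cannot be read from these libraries. Called lower under all 5 scalings were 27 members in wild type and 52 in TKO, and none was called in opposite directions by any pair of scalings. Rpsa, the laminin receptor protein of the small subunit, was called higher in wild type with total counts (3 called, with Rpl10l and Rpl39l) and upper quartile factors but not with TMM (adjusted p = 0.224).

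Scaling each library to the summed counts of the members asks instead how they moved against each other. On that scale 8 members were lower and 5 higher in wild type, and 19 lower and 5 higher in TKO. Rpl10l, Rpl15, Rpl39l and Rplp0 were higher in both genotypes, and Rpsa in wild type. Rpl3, Rpl12, Rpl23a, Rpl27a and Rps9 were lower in both. Rpl35 and Rps27a were lower in wild type, and 14 others, Rpl30 and Rps6 among them, were lower in TKO.

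**Figure D3:**
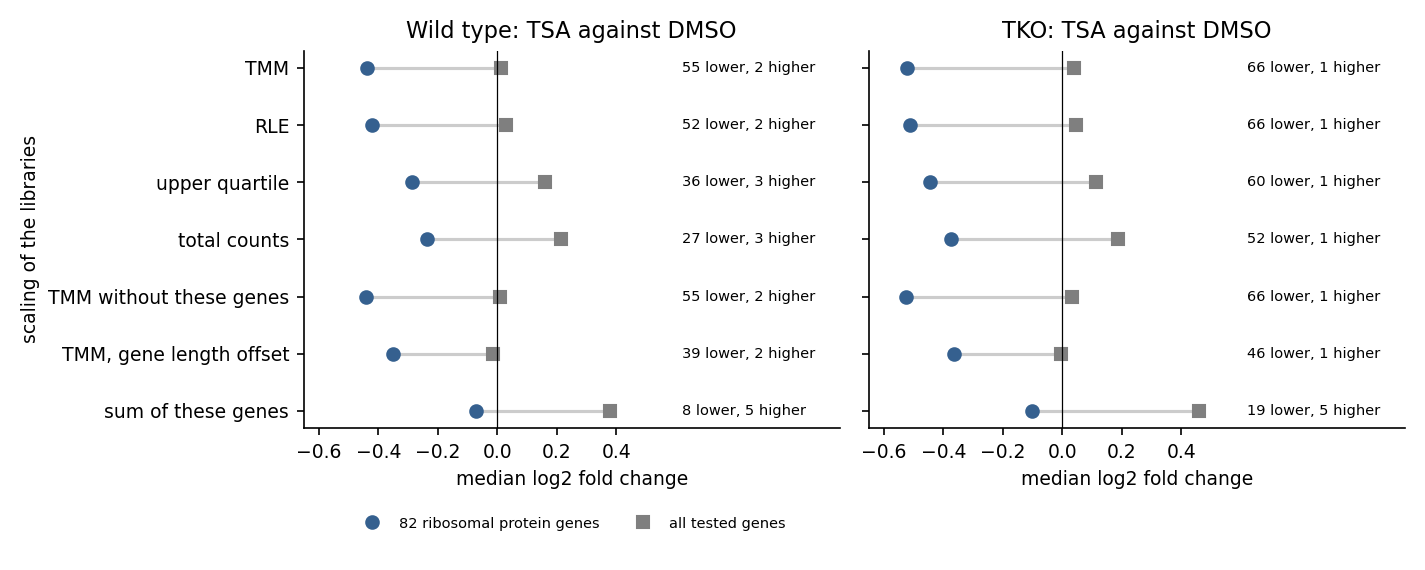
Median log2 fold change with TSA of the 82 ribosomal protein genes (circles) and of all 15822 tested genes (squares) under 7 ways of scaling the libraries, with the number of the 82 called lower and higher at an adjusted p below 0.05. Scaling factors move both medians alike by construction, so the gap between circle and square could change only with the length offset, where it narrows.

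Members are short and abundant, and in these libraries short and abundant genes in general were lower with TSA. The median exon length was 717.5 bases for the members and 2805 for all tested genes, and 62 of the 82 were shorter than 1000 bases. Among all tested genes shorter than 1000 bases, 31.5% were called lower in wild type and 38.3% in TKO, with medians of -0.19 and -0.26. Among the 195 that also had a mean of at least 67.4 normalised CPM, 53.8% and 54.4% were called lower, with medians of -0.29 and -0.35. These 195 include members. With an offset that removes the trend of counts with length in each library, 39 members were lower in wild type and 46 in TKO, their medians were -0.35 and -0.37, and the members minus all tested genes gave -0.34 and -0.36 in place of -0.45 and -0.56. Called lower under the 5 scalings and the offset as well were 27 members in wild type and 44 in TKO. The 20 members of 1000 bases or more had medians of -0.35 and -0.37 on the TMM scale, with 11 and 14 called lower.

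**Figure D4:**
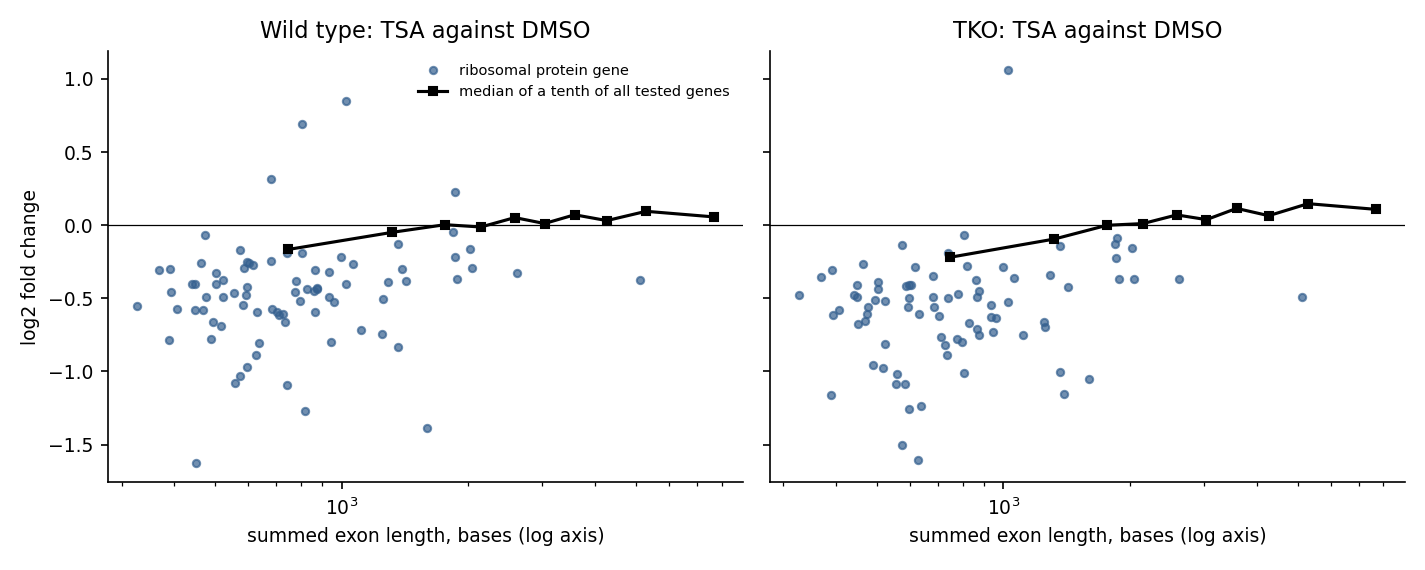
Log2 fold change with TSA against summed exon length in bases (log axis) for each of the 82 genes (circles), with the median of each of 10 equal classes of all tested genes by length (squares). In the shortest class all genes have medians of -0.17 (wild type) and -0.22 (TKO), and the 65 ribosomal protein genes in it have medians of -0.46 and -0.56.

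The paralogues did not move as a block. Rpl10l and Rpl39l rose with TSA in wild type cells and Rpl10l rose in TKO, whereas Rpl7l1, Rpl22l1 and Rps27l fell in both genotypes with TMM scaling. In wild type, Rpl10l and Rpl39l were called higher under all 5 scalings. Rpl7l1, Rpl22l1 and Rps27l were not among the 27 members called lower in wild type under all 5, so those calls depended on the scaling. Rpl10l (chromosome 12, 66283379 to 66284401, 1 exon) is an autosomal retrocopy of the X-linked Rpl10 known for its role in male meiosis. It was at 33.8 and 38.6 normalised CPM in the wild type libraries with DMSO and 64.3 and 65.9 in those with TSA, and in the TKO libraries at 41.6 and 42.6 with DMSO and 87.8 and 87.6 with TSA. The libraries with TSA were above those with DMSO in each genotype, by a log2 fold change of 0.85 (SE 0.102, adjusted p = 8.3e-05) in wild type and 1.06 (SE 0.1, adjusted p = 1.19e-05) in TKO. Its relative Rpl10 fell by 30.3% and 42.5%, from 36.5 in each wild type DMSO library to 25.8 and 25.1 with TSA, and from 39.8 and 38.4 in TKO DMSO to 24 and 21. Per kilobase, the mean of Rpl10l was below that of Rpl10 in DMSO, at 35.4 against 45.9 normalised CPM in wild type and 41.2 against 49.2 in TKO. With TSA it was above, at 63.7 against 32 in wild type and 85.7 against 28.3 in TKO.

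Rpl39l (chromosome 16, 10170228 to 10174911), an autosomal relative of X-linked Rpl39 that is best known from testis, followed the genotype more than the inhibitor. It was at 29 and 37.9 normalised CPM in the wild type libraries with DMSO and 50.8 and 57.4 in those with TSA, and in the TKO libraries at 112 in each with DMSO and 114 and 100 with TSA. The 4 TKO libraries lay above all wild type libraries. TKO exceeded wild type by a log2 fold change of 1.75 (SE 0.134, adjusted p = 1.53e-05) in DMSO and 0.99 (SE 0.128, adjusted p = 0.000601) with TSA. TSA raised it in wild type by 0.69 (adjusted p = 0.00144), and in TKO the difference was -0.07 (adjusted p = 0.651). The difference between those TSA effects was -0.76, with an adjusted p of 0.0747, so it did not pass the threshold. It passed under 4 of 18 alternatives (DESeq2, no filter, the replicate block and without wild type DMSO library 2), over which the adjusted p ran from 0.0161 to 0.252. Rpl39 itself was at 68 and 85.4, 58.3 and 53.3, 92 and 76.8, and 59.7 and 50.5 in the same order of groups.

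Rpl3l (chromosome 17, 24727829 to 24736149), the striated muscle form of Rpl3, was near the limit of detection. Its counts were 8 and 10 in the wild type libraries with DMSO and 5 and 3 in those with TSA, and in the TKO libraries 29 and 38 with DMSO and 18 and 17 with TSA. Both TKO libraries were above both wild type libraries in each treatment, with log2 fold changes of 1.78 (adjusted p = 0.00903) and 2.11 (adjusted p = 0.0136), and both calls were lost with DESeq2 (adjusted p = 0.0606 and 0.056). Leaving out a library lost the DMSO call without wild type DMSO library 1 or TKO DMSO library 2 (adjusted p up to 0.0843 by edgeR), and the TSA call without any 1 of the 4 TSA libraries (up to 0.0819). Rpl3 was at 95.9 and 77.7 normalised CPM in wild type DMSO and 53.1 and 44.5 with TSA. Rpl22l1, whose relative Rpl22 is known to repress it, fell with TSA by 28.8% and 32.2%, and Rpl22 fell by 18.2% and 22.5%. Rpl7l1, a factor of large subunit assembly, fell by 20.3% and 22.5%, and Rps27l, a target of p53, by 16.5% and 16.8%. These percentages are on the TMM scale.

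**Figure D5:**
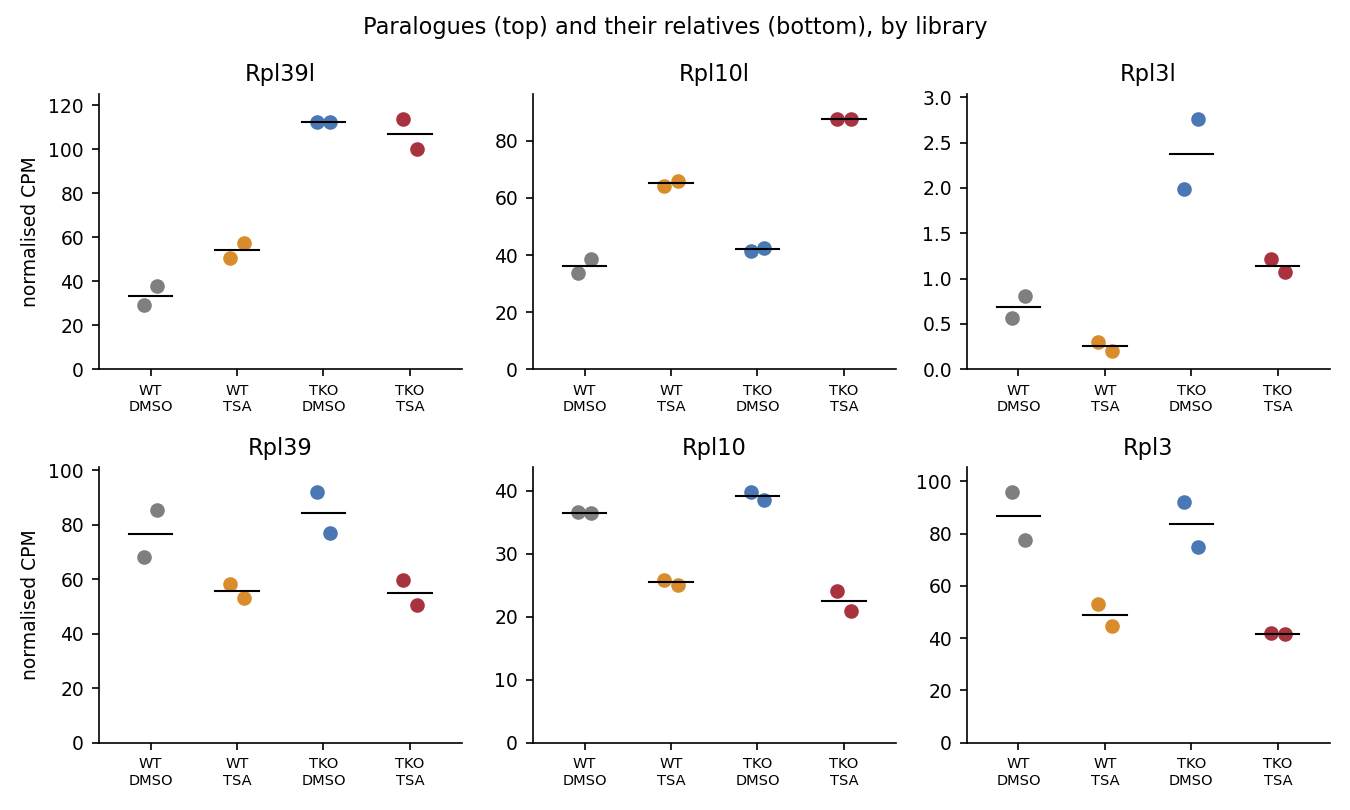
Normalised CPM in each library (points) and the mean of 2 libraries (lines) by group for Rpl39l, Rpl10l and Rpl3l in the top row and for their relatives Rpl39, Rpl10 and Rpl3 in the bottom row, each panel with its own axis from 0. Rpl39l is higher in all 4 TKO libraries, Rpl10l in all 4 TSA libraries, and the 3 relatives are lower in their TSA libraries.

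The genotype changed few ribosomal protein genes. In DMSO 4 members were called higher in TKO than in wild type and 2 lower, where 9.63% of all tested genes were called higher and 10.7% lower, and the median log2 fold change of the members was 0.06 beside -0.01 over all tested genes. With TSA 4 were higher and 2 lower, where 10% were higher and 8.38% lower, and the medians were -0.05 and 0.00. Higher in both treatments were Rpl39l, Rpl3l and Rps2, with Rps18 added in DMSO and Rpl10l added with TSA. Rpl13 was lower in both treatments, with Rpl35 added in DMSO and Rps6 with TSA. Rps18 falls outside the rule by which genes were named and is given because it completes these counts.

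Rps2, a core protein of the small subunit, was at 130 and 121 normalised CPM in wild type DMSO and 162 in each TKO DMSO library, a log2 fold change of 0.37 (SE 0.0916, adjusted p = 0.0155). With TSA it was at 106 and 109 against 126 and 140 (adjusted p = 0.0405). Rpl13 was at 90.9 and 103 in wild type DMSO and 76.6 and 76 in TKO DMSO (log2 fold change -0.35, adjusted p = 0.0293), and at 76.1 and 72.8 against 56.8 and 53.1 with TSA (-0.44, adjusted p = 0.0118). The 2 genotypes did not overlap for either gene in either treatment. Rps18 was at 71.1 and 77.2 against 91.8 and 91.5 in DMSO, a log2 fold change of 0.31 (adjusted p = 0.0413). Over 19 alternatives, the Rps2 call held in 16 in DMSO and in 9 with TSA, where it was lost with DESeq2 (adjusted p = 0.0597), without the filter and with total count or upper quartile scaling among others, and the Rps18 call held in 8. These small sets also depended on single libraries. In DMSO 3 members were called without wild type DMSO library 1, 3 without TKO DMSO library 1 and 2 without TKO DMSO library 2, and with TSA 2 without wild type TSA library 1, 3 without TKO TSA library 1 and 2 without TKO TSA library 2. Rpl39l was the only member called in all 8 fits that leave out a library, in each treatment.

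Rps6 was the 1 member whose TSA effect was called different between genotypes by the interaction test with TMM scaling and all 8 libraries. That is 1.22% of the 82 members, where 1.35% of all tested genes were called in either direction and 0.468% lower. Rps6 encodes the small subunit protein phosphorylated downstream of mTOR. Rps6 (chromosome 4, 86854099 to 86857367) was at 35.1 and 33.4 normalised CPM in the wild type libraries with DMSO and 29.5 and 26.2 in those with TSA, and in the TKO libraries at 41.1 and 47.4 with DMSO and 20.8 and 19 with TSA. TKO was above wild type in DMSO and below it with TSA, with no overlap in either. The TSA effect was -0.30 in wild type (adjusted p = 0.0667) and -1.15 in TKO (adjusted p = 2.9e-05), a difference of -0.85 (SE 0.179, adjusted p = 0.0455). Each of the 8 fits that leave out 1 library lost the call, with the highest adjusted p at 0.219 (without TKO DMSO library 2), while the difference stayed between -0.95 and -0.75 over all 18 alternatives.

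Most tested genes that work with the ribosome also fell with TSA, and the lists below share some genes. Of all tested genes, 25.9% were called lower in wild type and 27.9% in TKO. Of the 3956 with a mean of at least 67.4 normalised CPM, 46.1% and 44.2% were called lower. Among ribosomal protein genes outside the symbol rule, Rpl36al, Fau and Gnb2l1 (Rack1) fell with TSA in both genotypes. Gnb2l1 was at 2352 and 2403 normalised CPM in wild type DMSO and 1780 and 1743 with TSA. Of 7 elongation factor genes 5 fell in each genotype, among them Eif5a, which fell by 47.6% and fell by 50.2%, while Eef2, the translocase, had log2 fold changes of -0.04 and -0.01 and adjusted p-values of 0.721 and 0.909. Of 21 genes listed for TOP messenger RNAs, 16 fell in each genotype and none rose. Gas5, a small nucleolar RNA host gene, fell by 53.9% in wild type and fell by 65.9% in TKO. Of 36 initiation factor genes 28 fell in wild type and 26 in TKO, with 2 higher in TKO, among them Eif4g3 with a log2 fold change of 0.44 (adjusted p = 0.0105).

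Most ribosome assembly genes were lower as well. Of 61 tested ribosome biogenesis genes 44 fell in wild type and 39 in TKO and none was called higher, and their medians were -0.50 and -0.41. Polr1a, the largest subunit of RNA polymerase I, fell by 50.1% and 47.9%, and Ubtf, which opens ribosomal DNA for it, by 46.8% and 53.1%. Nob1, the nuclease that finishes 18S ribosomal RNA, was at 164 and 144 normalised CPM in the wild type libraries with DMSO and 78.4 and 67.1 in those with TSA, and in the TKO libraries at 90.6 and 89.8 with DMSO and 38.2 and 36.4 with TSA, and was lower in TKO in both treatments. Of 18 genes of mTOR signalling and TOP control, 9 fell and 1 rose in wild type and 8 fell and 2 rose in TKO. Their log2 fold changes were negative for 14 of the 18 in wild type and 12 in TKO, with medians of -0.32 and -0.28. Myc, which promotes ribosome production, fell by 58.6% and fell by 53.2%, and Mycn fell by 33.6% and fell by 55.7%. Ddit4, an inhibitor of mTOR complex 1, rose from 29.1 and 37.8 to 85.7 and 143 normalised CPM in TKO (adjusted p = 0.000108). The 76 tested genes of the mitochondrial ribosome, which makes other proteins with other subunits, also shifted, with 44 lower and 2 higher in wild type, 48 lower and 6 higher in TKO, and medians of -0.40 and -0.37. Whether these lists differ from the cytosolic set was not tested.

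The 36 tested members with a TOP tract by the rule above had medians of -0.45 in wild type and -0.62 in TKO. The 26 without had -0.39 and -0.47. Members with the Gabpa letters had medians of -0.38 and -0.49, and those without -0.46 and -0.52. The 72 members with no shared exon bases had 46 lower calls and a median of -0.42 in wild type and 59 lower calls and -0.51 in TKO. The 20 without a listed pseudogene had medians of -0.39 and -0.40 with 14 and 16 lower calls, and the 62 with one had -0.46 and -0.59 with 41 and 50. These are descriptions of groups of genes, and no difference between them was tested.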

How the data were processed

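Per the labels' protocols, paired-end sequencing was done on directional libraries of total RNA from which ribosomal RNA had been removed. The authors deposited unnormalised read counts per gene for 8 libraries with exon coordinates and summed exon length in bases, which is the other deposited value used. The submitters' processing notes name TopHat2 2.0.13, featureCounts 1.4.5-p1, edgeR 3.22.3 and the build mm10, and the handling of strand and multi-mapping reads is not given in the sources used here. Counts were tested with edgeR 4.0.16 (R 4.3.3): filterByExpr kept 15822 genes, TMM scaled the libraries, and 1 quasi-likelihood fit over the 4 groups (4 residual degrees of freedom) gave two-sided p-values, adjusted by Benjamini-Hochberg over all genes tested and called below 0.05. With 2 libraries a group an exact permutation test cannot go below p = 0.333. Standard errors derive from the F statistic and are approximate. Replicates correlated at r = 0.988 to 0.992 in log2 CPM, and their chi-square per degree of freedom of 5.17 to 11.7 was above sampling noise. Floors cover counting error only. Alternatives were other scalings, filters, DESeq2 1.42.0, a length offset, fewer groups, a replicate block and leaving out each library.

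Genes named are the paralogues and their relatives, stalk and 5S particle genes, the 5 highest and 5 lowest members of each contrast with a mean of at least 1 CPM, the 5 highest per kilobase, members whose call changed with the scaling where 5 or fewer, and interaction calls. Of other genes they are the Dnmt genes, ribosomal protein genes outside the symbol rule, elongation factors and at most 4 called genes of each other list and contrast. Members shown only by their sequence (Rpl13a, Rpl7a, Rpl27a) or overlap, and Rps18, lie outside that rule and were chosen after their values were seen. The members and lists were chosen with earlier results of these data known. The edgeR fit was tested on simulated data. The other 118 samples were not analysed here. A few genes that the rule would name are not reported here.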

Additional observations from a re-analysis of the deposited data

Results flagged for a closer look

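Rps6 was singled out because the interaction test called its response to TSA different between genotypes. Subtracting the wild type TSA effect from the TKO one gave -0.85 on the log2 scale (edgeR quasi-likelihood, adjusted p = 0.0455). This 1 call is 1.22% of the 82 members, beside 1.35% of all tested genes called in either direction. As given above, the call did not hold when a library was left out. The TKO libraries of Rps6 were also both above wild type in DMSO and both below it with TSA.

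For 4 further members the 2 TKO libraries lay on opposite sides of the 2 wild type libraries in DMSO and with TSA, and none passed the interaction test. The differences in the TSA effect were -0.19 for Rpl31 (adjusted p = 0.634), -0.62 for Rps23 (adjusted p = 0.283), -0.44 for Rps18 (adjusted p = 0.153) and -0.28 for Rpl10 (adjusted p = 0.487), by the same edgeR test. In all 4, as in Rps6, TKO was above wild type in DMSO and below it with TSA. These 5 are 6.1% of the 82 members, and 419 of the 15822 tested genes (2.65%) showed the same pattern, so with 2 libraries a group the count is a description, and the difference between these shares was not tested.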

How the results depend on the processing

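Called directions held widely and call counts did not. Over 19 alternatives, 7321 of 7801 values of the 83 named genes kept their side of the threshold and, where called, their direction. Of the rest, 367 lost the call, 85 gained it and 28 changed sign while called in at least 1 of the 2 fits. All but 1 of these 28 came under scaling to the summed member counts. Values called in neither fit count as kept and were not checked for sign, and the totals pool all contrasts. For TSA in wild type alone, 58 of the 83 named genes were kept with total counts and 62 with upper quartile factors. With these scalings 23 and 19 lost the call. Negative members in wild type numbered 78 with TMM, 71 with total counts and 54 with the member sum. Of the 82 members, 30 were called in wild type with scaling to total counts and 13 with scaling to the summed member counts, and 24 in TKO with the latter. The wild type median was -0.29 with upper quartile factors, -0.23 with total counts, -0.0714 with the member sum and -0.35 with the length offset, and the TKO median was -0.37 with total counts, -0.10 with the member sum and -0.37 with the offset. Interaction calls numbered 0 with the member sum and 2, Rps6 and Rpl39l, without a filter, with DESeq2 and with the replicate block. Leaving out mitochondrial and ribosomal RNA, the members' share of counts was 1.37% and 1.21% in wild type with DMSO and TSA and 1.40% in TKO with DMSO. Without members that share exon bases it was 1.23%, 1.10%, 1.25% and 1.04% in the 4 groups. Fewer members or a smaller denominator set these shares by construction, and for the other changes the cause was not tested.

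Leaving out 1 library gave 38 to 56 calls in wild type, 48 to 69 in TKO, 2 to 7 between genotypes in DMSO, 2 to 7 with TSA and 0 to 1 for the interaction. The medians ran from -0.49 to -0.42, -0.56 to -0.50, 0.01 to 0.12, -0.08 to 0.00 and -0.14 to -0.03 in that order. Same-numbered libraries deviated together weakly, with r of 0.0673 to 0.325 over 6 pairs of groups, not over 0.1 in each, so the labels' numbers were not taken to pair them. The replicate block gave 11 genotype calls among the members in DMSO, in place of 6. Over all tested genes it gave 2025 higher and 2192 lower in that contrast, in place of 1523 and 1698. For the interaction it gave 406 higher and 227 lower, in place of 139 and 74, so call counts depended on this choice.

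Scaling to the member sum shifts every gene upward by the same amount in each TSA contrast, so the sign changes that follow are that shift and not separate reversals. Only named genes whose value was called with TMM, with the member sum or with both are listed. Over all 82 members, 78 were negative in wild type with TMM and 54 with the member sum, and in TKO 81 and 55. The member sum turned the sign of the TSA effect in wild type for Dnmt1 (0.0862), Eef1a1 (0.0625), Eef1d (0.26), Eef2 (0.33) and Rpl15 (0.32). It also did so for Rpl22 (0.0776), Rpl7 (0.0494), Rpl7l1 (0.0395), Rplp0 (0.24) and Rps27l (0.11). In TKO it did so for Dnmt1 (0.37), Eef1a1 (0.0500), Eef1b2 (0.16), Eef1d (0.27), Eef2 (0.41), Gnb2l1 (0.0464), Nip7 (0.13), Rpl15 (0.29), Rpl22 (0.0489), Rpl39l (0.35), Rpl7l1 (0.0477), Rpl8 (0.0397), Rplp0 (0.28), Rps2 (0.14), Rps27l (0.15), Rps3 (0.0511) and Tsc2 (0.14). The length offset gave 0.0138 for Rps27l in TKO. Counts of 13280631 to 15542527 a library limit members under about 1 CPM.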
